A study of Sus scrofa domesticus with 4 samples.

Results

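The genes described here are the growth hormone receptor GHR, the insulin-like growth factors IGF1 and IGF2, their receptors IGF1R and IGF2R, and the binding proteins IGFBP2, IGFBP3 and IGFBP5. They were taken as every non-control probe whose RefSeq accession belongs to 1 of these 8 genes, which gave 8 of the 3029 genes named on the array and 18 of its 43603 probes. Of these, 17 passed the filter on dim probes (signal well above background in 4 or more of the 8 channels), as did 25138 probes in all. The remaining probe was 1 of 4 for IGF2R.

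RNA came from the anterior lobe of the pituitary of 8 mature gilts (young female pigs), crosses of Large White with Polish Landrace. The 4 pregnant gilts had been bred naturally and were killed on days 15 to 16 of pregnancy, and the 4 cyclic gilts on days 15 to 16 of the estrous cycle. The labels name no treatment, and ages are not given in the sources used here. Each of 4 two-colour arrays carried 1 pregnant and 1 cyclic animal, with dyes swapped by the label fields, so that the pregnant RNA is in Cy5 for arrays 2 and 4 and in Cy3 for the others. The labelling text instead names Cy3 for every pregnant animal. The label fields were followed here, and the authors' deposited ratios have the same orientation on all 4 arrays. Values with arrays 2 and 4 turned are given where they change an estimate's direction for the 8 genes or the named pathway genes. Turned, all pregnant RNA would be in Cy3, so no dye term can be fitted. A turned value is thus the main fit's dye effect (red over green) with its sign changed. Pregnancy and dye cannot be told apart in it.

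Growth hormone from the somatotropes of this gland acts through GHR and, through the kinase JAK2 and the STAT5 factors, induces IGF1. IGF1 and IGF2 both signal through the tyrosine kinase receptor IGF1R, while IGF2R carries IGF2 and mannose 6-phosphate tagged enzymes to lysosomes. IGF-binding proteins hold the growth factors outside cells and can both restrain and prolong their action. In the pituitary, IGF1 restrains growth hormone secretion.

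All 7 defining hormone genes of the anterior lobe (GH1, PRL, POMC, CGA, LHB, FSHB and TSHB) were well above background in all 8 channels. Between 50.5% and 60.5% of probes in the pregnant channels and between 52.6% and 66.6% in the cyclic channels passed that background limit, and the cyclic animal of array 1 had the highest share. Other cell types were read from marker lists, of which 3 of 6 genes were tested for folliculostellate and stem cells, 3 of 6 for endothelium, 4 of 6 for macrophages and 3 of 4 for the posterior and intermediate lobe. The log2 of the summed level ran from 12.92 to 13.31 in pregnant and 12.96 to 13.26 in cyclic animals for the folliculostellate list, and from 12.00 to 12.43 and 11.98 to 12.79 for endothelium. For macrophages it ran from 12.40 to 13.27 and 12.57 to 13.34, and for the posterior and intermediate lobe from 11.81 to 13.24 and 12.31 to 13.30, so the groups overlapped for each list. Whole tissue was measured, so fewer cells of a type and less RNA per cell cannot be told apart.

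By the label fields, IGFBP5 stood lower in the pregnant animals, at 0.592 of the cyclic level with a 95% interval from 0.405 to 0.866. With arrays 2 and 4 turned it stood at 0.11 on the log2 scale, while IGF2 stood at -0.46 and GHR at 0.15. GHR stood higher at 1.29 times the cyclic level (interval 1.05 to 1.58). All 5 IGF2 probes stood lower, with 1 cyclic animal the highest of the 8 on each. In the main fit IGF1, IGF1R, IGF2R, IGFBP2 and IGFBP3 lay closer to equality. None of the 17 probes passed limma's test with Benjamini-Hochberg adjustment over all probes (0 of 17, where 0% of all probes tested passed), the smallest adjusted p of the 17 being 0.605. At an unadjusted p under 0.05 there were 4 of the 17 probes, 2 of GHR, 1 of IGF2 and the 1 of IGFBP5, where 8% of all probes tested lay under that limit. In this set 2 probes were higher in pregnant animals, where 3.43% of all probes were, and 2 were lower, where 4.57% were. The estimate lay below 0 for 10 of the 17, where it did for 52.4% of all probes. The ratio had 1 sign on all 4 arrays for 6 of the 17 probes, where 14.6% of all probes did.

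**Figure D1:**
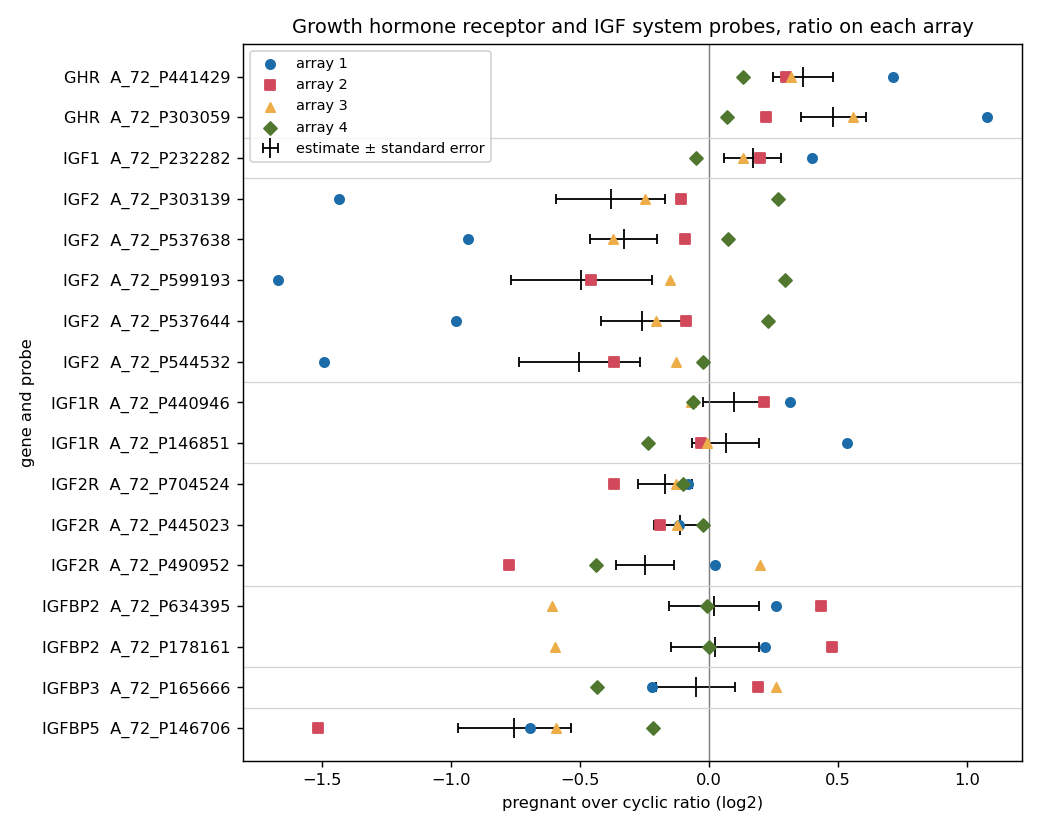
Ratio of pregnant over cyclic (log2, horizontal axis) on each of the 4 arrays for the 17 tested probes (vertical axis), with the limma estimate and its standard error in black. Both GHR probes lie above 0 and the IGFBP5 probe below 0 on 4 of 4 arrays, and array 1 stands apart for the 5 IGF2 probes, between -1.67 and -0.94.

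Of the ligands, IGF1 was measured by 1 dim probe, well above background in all 8 channels, with raw intensities between 135 and 199. Its level, given here and below as log2 intensity after normalisation, was 7.47, 7.42, 7.31 and 7.48 in the pregnant animals of arrays 1 to 4. In the cyclic animals of the same arrays it was 7.07, 7.23, 7.19 and 7.53. The cyclic animal of array 4 was the highest of the 8, and the other 3 cyclic animals lay below every pregnant animal. The ratio was 0.40, 0.20, 0.13 and -0.05 on arrays 1 to 4. The estimate was 0.17 ± 0.11 (standard error of the limma fit, 4 arrays; interval -0.11 to 0.45) and was not significant (limma, adjusted p = 0.659). That standard error is of a mean over 4 arrays, after a gene-specific dye effect. It is not the spread between single arrays, whose SD for this probe was 0.19. With the scanner's processed signals the estimate was 0.39 (limma, adjusted p = 0.596).

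IGF2 was measured by 5 probes of 1 transcript accession, and the same animal was the highest on each of them. On the brightest probe, A_72_P303139, the pregnant animals stood at 8.67, 8.88, 8.77 and 8.87. The cyclic animals stood at 10.11, 8.99, 9.02 and 8.61. The cyclic animal of array 1 lay apart, 2.13 times above the next highest of the other 7 animals, while of the other 3 cyclic animals 2 lay above and 1 below all pregnant ones. On A_72_P599193 that animal stood at 10.00, against 7.94 to 8.57 in the other 7. On A_72_P544532 it stood at 9.02, against 7.20 to 7.65. Its excess over the next highest animal was 2.69 times on the first of these and 2.59 times on the second. On the probes A_72_P537638 and A_72_P537644 the excess was smaller, at 1.20 and 1.36 times. The probes of this gene thus ranked the same animal first but differed in how far it stood out. That animal was the highest of 8 for 16.4% of all probes tested and the highest by at least 1 log2 unit, as on 3 of the 5 IGF2 probes, for 0.155%. The animal was picked because IGF2 was highest in it. The share of probes on which any of the 8 animals stood out as far was not counted.

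**Figure D2:**
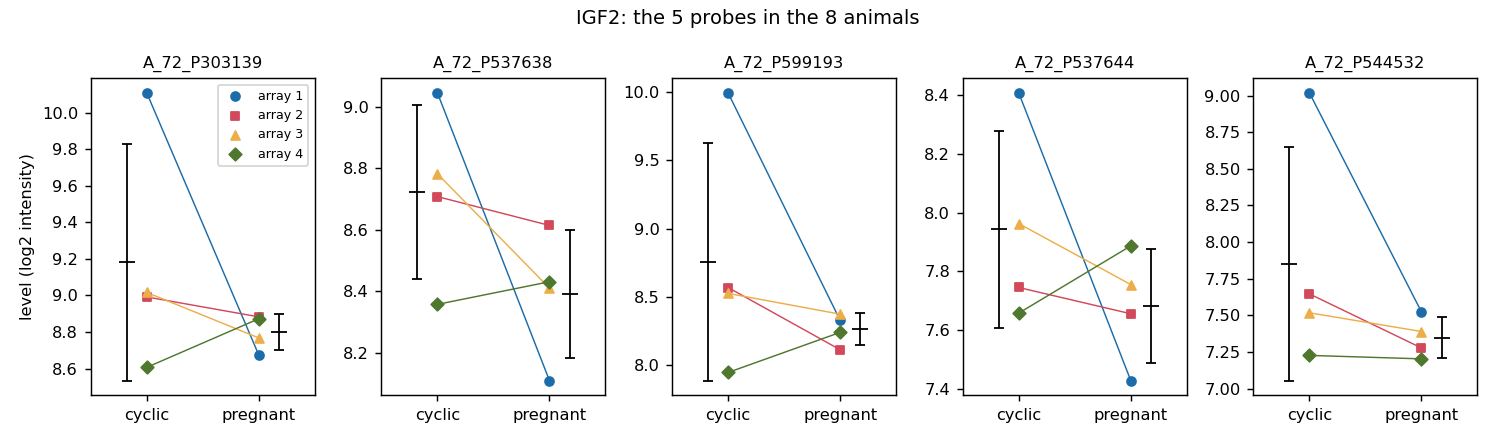
Level of IGF2 (log2 intensity, vertical axes, each probe on its own scale) in the 4 cyclic and 4 pregnant animals for the 5 probes, with lines joining the animals of an array and bars for the mean ± SD of a group. The cyclic animal of array 1 is the highest point in all 5 panels, and without it the cyclic animals lie near the pregnant ones.

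The IGF2 estimate on the brightest probe was -0.38 ± 0.21 (interval -0.91 to 0.15; limma, adjusted p = 0.622), with array ratios of -1.43, -0.11, -0.25 and 0.27. Over the 5 probes the estimates ran from -0.50 to -0.26, and 1 of them, A_72_P537638 at -0.33 ± 0.13, was under the unadjusted limit (limma, adjusted p = 0.605). The dye effect on these probes was large, with red over green between 0.31 and 0.46. Without array 1 the brightest probe stood at -0.09 and A_72_P537638 at -0.19. Without array 3, where array 1 counts as much as arrays 2 and 4 together, the brightest probe stood at -0.68 (limma, unadjusted p = 0.00674, adjusted p = 0.498).

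Markers of connective tissue were also higher in the cyclic than in the pregnant animal of array 1. Decorin, DCN, a small matrix proteoglycan, had ratios of -1.16, 0.53, -0.33 and 0.55 on arrays 1 to 4. Lumican, LUM, its relative, had -0.89, 0.43, -0.20 and 0.35, though over all arrays only 1 of its 8 other tested probes gave an estimate of the same sign. Of the 8 listed markers of stroma and vessel wall, 4 were tested (DCN, LUM, COL1A2 and ACTA2), and COL1A1, COL3A1, PDGFRB and TAGLN had no tested named probe. COL1A2 had ratios of -0.79, -0.81, 0.40 and -0.57 and ACTA2 of -0.28, -0.66, 0.17 and -0.05, each lowest on array 2. All 4 were lower in the pregnant animal of array 1, where their mean ratio was -0.78. The log2 of their summed level was 14.43 in that cyclic animal and also 14.43 in the cyclic animal of array 2. On the brightest IGF2 probe these 2 animals stood at 10.11 and 8.99. The summed marker level ran from 13.86 to 14.43 in the cyclic group and from 13.77 (array 1) to 14.06 in the pregnant group. The part of these markers in the IGF2 difference was not tested.

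Of the receptors, GHR was measured by 2 probes that both stood higher in the pregnant animal of every pair. On the brighter probe, A_72_P441429, the pregnant animals stood at 9.90, 9.76, 10.14 and 9.69. The cyclic animals stood at 9.19, 9.46, 9.82 and 9.56. The pair of array 3 was the highest within each group, and its cyclic animal lay above the pregnant animals of arrays 2 and 4, so the groups overlapped. Array ratios were 0.71, 0.30, 0.32 and 0.13 on this probe and 1.08, 0.22, 0.56 and 0.07 on A_72_P303059. Array 1 had the widest and array 4 the narrowest difference on both. A ratio above 0 on 4 of 4 arrays, as for both GHR probes, was seen for 6.81% of all probes tested.

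The GHR estimate was 0.36 ± 0.12 (interval 0.07 to 0.66; limma, unadjusted p = 0.0230, adjusted p = 0.605) on the brighter probe. On the other probe it was 0.48 ± 0.13 (interval 0.16 to 0.80; limma, unadjusted p = 0.0107, adjusted p = 0.605). By unadjusted p these probes ranked 880 and 358 of the 25138 tested. The brighter probe's unadjusted p was 0.145 without array 1, 0.0924 without array 2 and 0.0991 when loess was replaced by centring each array on its median. With arrays 2 and 4 turned the estimates were 0.15 and 0.34.

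IGF1R, the receptor that carries the growth signal, was dim, with raw intensities between 80 and 157 over local backgrounds of 21.5 to 56 among the probes of the 8 genes. On A_72_P440946 the pregnant animals stood at 7.21, 7.15, 7.11 and 7.02 and the cyclic animals at 6.90, 6.94, 7.18 and 7.08. The pregnant animal was higher on arrays 1 and 2 and slightly lower on arrays 3 and 4. The estimate was 0.10 ± 0.12 (interval -0.20 to 0.40; limma, adjusted p = 0.812). The second probe, A_72_P146851, stood at 0.06 ± 0.13 (limma, adjusted p = 0.895), and its pregnant channel was well above background on 3 of 4 arrays. On both probes array 1 had the highest ratio, 0.31 and 0.53.

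IGF2R, the clearance receptor of IGF2, was close to the limit of detection on all 4 of its probes. On the brightest, A_72_P704524, the pregnant animals stood at 6.87, 6.98, 7.40 and 6.92 and the cyclic animals at 6.96, 7.35, 7.53 and 7.03. The pregnant animal was lower in each of the 4 pairs, by little except on array 2, where the ratio was -0.37 against -0.08, -0.13 and -0.10 on arrays 1, 3 and 4. The estimate was -0.17 ± 0.11 (interval -0.43 to 0.09; limma, adjusted p = 0.641). On A_72_P445023 it was -0.11 ± 0.10, also lower on 4 of 4 arrays, and on A_72_P490952 it was -0.25 ± 0.11 with ratios from -0.78 to 0.19. A ratio below 0 on 4 of 4 arrays was seen for 7.75% of all probes tested.

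The counts of channels in which the IGF2R probes were well above background are given only as a description. A_72_P490952 was well above background in 1 of 4 pregnant and 4 of 4 cyclic channels. Its cyclic channels alone met the filter's limit of 4 channels, so its lower estimate and this split are not separate support. A_72_P704524 and A_72_P445023 each were well above background in 3 of 4 pregnant and 4 of 4 cyclic channels. The untested probe, A_72_P444408, was in 0 of 4 pregnant and 1 of 4 cyclic channels. A_72_P146851 of IGF1R and the IGFBP3 probe also had 3 of 4 pregnant and 4 of 4 cyclic channels. The share of all probes with such a split was not counted. Of all probes, 50.5%, 60.5%, 54.5% and 56.3% passed in the pregnant channels of arrays 1 to 4. In the cyclic channels 66.6%, 60.4%, 58.8% and 52.6% did. With arrays 2 and 4 turned, A_72_P704524 stood at 0.065, A_72_P490952 at 0.36 (limma, adjusted p = 0.549) and A_72_P445023 at -0.0061, so 2 of the 3 tested probes changed sign. With the scanner's processed signals A_72_P490952 stood at -1.04 (limma, unadjusted p = 0.00194, adjusted p = 0.588) and A_72_P445023 at -0.43. With a background offset of 10 they stood at -0.47 (limma, adjusted p = 0.583) and -0.18.

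**Figure D3:**
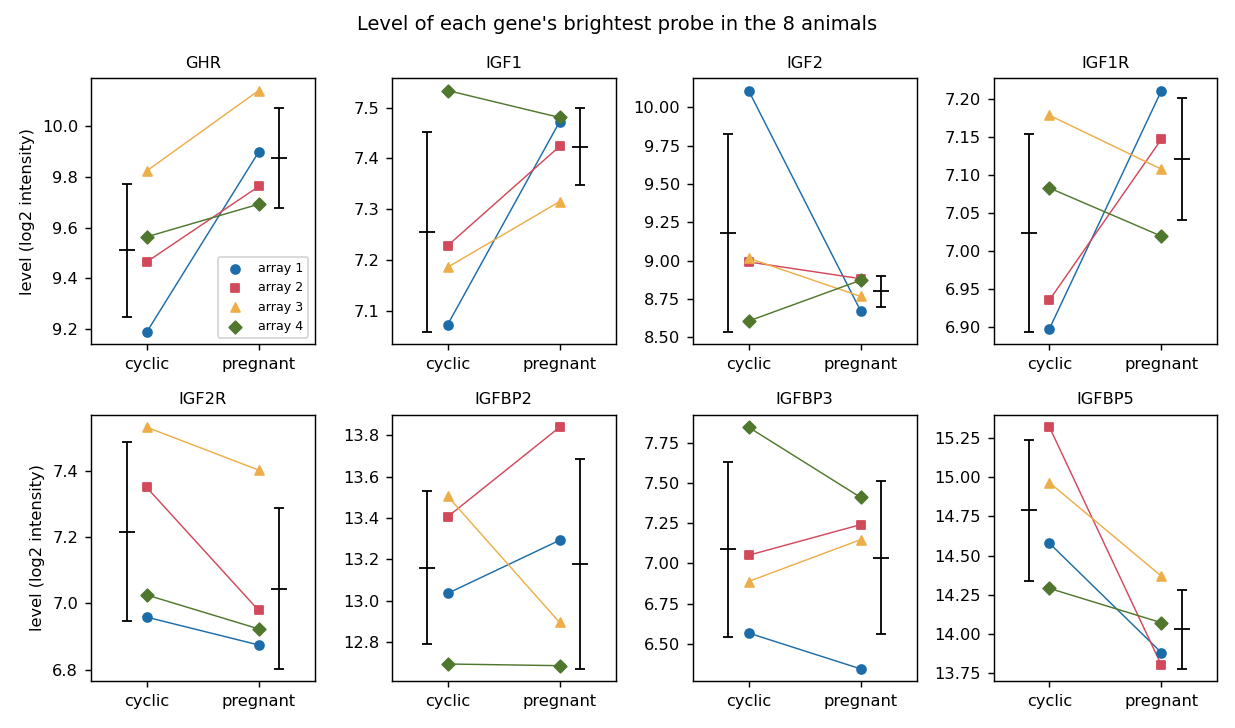
Level (log2 intensity, vertical axes, each gene on its own scale) of the brightest probe of each of the 8 genes in the 4 cyclic and 4 pregnant animals, with lines joining the animals of an array and bars for the mean ± SD of a group. All 4 lines fall for IGFBP5 and for IGF2R and all 4 rise for GHR, while the groups overlap in every panel.

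Of the binding proteins, IGFBP5, which also binds extracellular matrix, was measured by 1 bright probe, A_72_P146706, with raw intensities from 10281 to 44329. The pregnant animals stood at 13.88, 13.80, 14.37 and 14.07. The cyclic animals stood at 14.58, 15.32, 14.96 and 14.29. The groups overlapped by 1 animal each, the pregnant animal of array 3 lying above the cyclic animal of array 4. Of all probes tested, 1.04% had all 4 pregnant levels below all 4 cyclic levels and 1.08% the reverse, and 0 of the 17 probes were among them. The cyclic animal of array 2 was the highest and the pregnant animal of that array the lowest of the 8.

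The IGFBP5 ratio was -0.70, -1.52, -0.60 and -0.22 on arrays 1 to 4. The estimate was -0.76 ± 0.22 (interval -1.31 to -0.21), below 0 on 4 of 4 arrays, and did not pass adjustment (limma, unadjusted p = 0.0157, adjusted p = 0.605). An exact two-sided sign-flip test over 4 arrays cannot go below p = 0.125. Without array 2 the estimate was -0.43 and without array 4 it was -1.08. With arrays 2 and 4 turned, as the labelling text would have it, and no dye term, the estimate was 0.11 ± 0.37. This equals the main fit's dye effect of -0.11 with its sign changed, so dye and pregnancy cannot be told apart in it. The direction of this gene rests on the label fields, whose orientation the authors' deposited ratios share. Hormone genes of the secretory cells had mean ratios of -0.71, 0.84, -0.68 and -0.68 on the 4 arrays. TSHB, the thyrotropin subunit, weighs most in these means, with ratios of -1.67, 4.48, -3.02 and -4.20. On array 1 all 7 hormone genes were below 0. On array 2, where the IGFBP5 ratio was lowest, LHB (-0.60) and PRL (-0.38) were below 0 and the other 5 above. Their part in the IGFBP5 difference was not tested.

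IGFBP2, the next protein-coding gene to IGFBP5 in the pig RefSeq annotation of Sscrofa11.1, had ratios of both signs. On the brighter probe, A_72_P634395, the pregnant animals stood at 13.29, 13.84, 12.89 and 12.69. The cyclic animals stood at 13.04, 13.41, 13.51 and 12.69. The pair of array 4 was low in both groups and differed by -0.01, while arrays 1 and 2 were above 0 at 0.26 and 0.43 and array 3 below at -0.61. The second probe gave 0.21, 0.47, -0.60 and 0.00, and the probes differed from each other by at most 0.0429 on any array. The spread between arrays of this gene (SD 0.46) thus recurred on both probes. The estimate was 0.02 ± 0.18 (interval -0.42 to 0.46, or 0.746 to 1.37 times the cyclic level; limma, adjusted p = 0.981). It was -0.20 without array 1, -0.09 without array 2 and -0.19 with arrays 2 and 4 turned.

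IGFBP3, the main carrier of IGFs in blood, was measured by 1 dim probe, well above background in 3 of 4 pregnant and 4 of 4 cyclic channels. The pregnant animals stood at 6.35, 7.24, 7.15 and 7.41 and the cyclic animals at 6.57, 7.05, 6.89 and 7.85. The pair of array 1 was the lowest within each group and the pair of array 4 the highest. Ratios were -0.22, 0.19, 0.26 and -0.44, and the estimate was -0.05 ± 0.15 (interval -0.44 to 0.33; limma, adjusted p = 0.932). The sign changed without array 1 (0.068) and without array 4 (0.10), and it was 0.071 with arrays 2 and 4 turned. With the scanner's processed signals the estimate was -0.34.

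**Figure D4:**
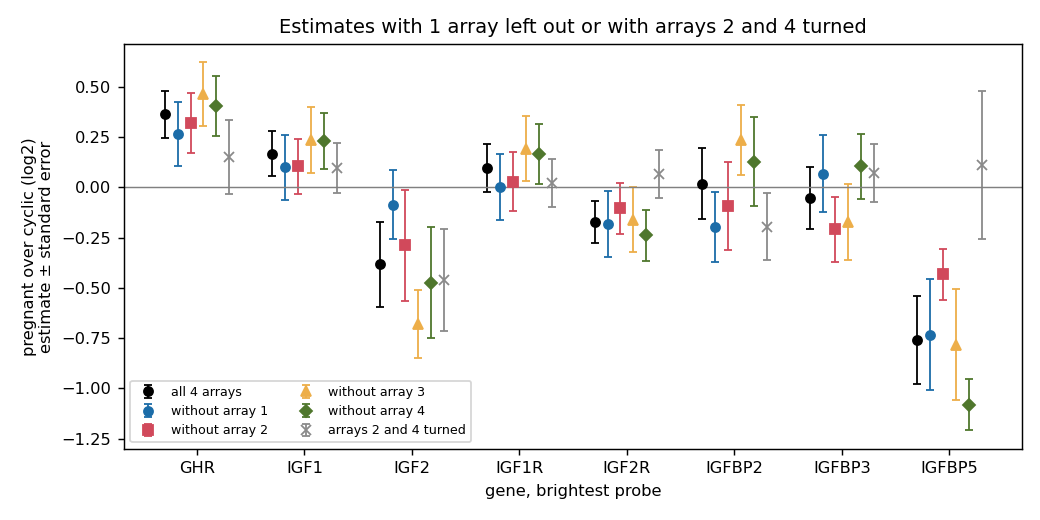
Estimate of pregnant over cyclic (log2, vertical axis) with its standard error for the brightest probe of each of the 8 genes, with all 4 arrays, without each array in turn, and with arrays 2 and 4 turned and no dye term. IGFBP5 moves from -0.43 without array 2 to -1.08 without array 4 and to 0.11 with the arrays turned, and IGF2 moves to -0.09 without array 1.

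The other genes of the pathway were read in 5 lists, of which 29 of the 80 listed genes were tested. Of these 29, 0 passed adjustment (limma, smallest adjusted p = 0.605), and at the unadjusted limit of 0.05 there were 0 higher and 4 lower, where 3.43% and 4.57% of all probes were. Their median ratio was -0.01, as over all probes tested. The 4 genes were FOXO3, AKT1, CTSD and SSTR2.

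Downstream of IGF1R, 2 of 7 tested genes lay under the unadjusted limit, each lower in pregnant animals, and the median of the list was -0.01. FOXO3, a forkhead factor that the kinase AKT excludes from the nucleus, had ratios of -0.27, -0.61, -0.21 and -0.32 on arrays 1 to 4. Its estimate was -0.35 ± 0.11 (limma, adjusted p = 0.605). AKT1, the kinase itself, had ratios of -0.19, -1.03, -0.15 and -0.23 and an estimate of -0.40 ± 0.15 (limma, adjusted p = 0.605). Array 2 stood apart for AKT1, as it did for IGFBP5, and without it AKT1 stood at -0.20. With arrays 2 and 4 turned, FOXO3 stood at 0.11 and AKT1 at 0.23. Without array 1, 2 or 3 neither gene stayed under the unadjusted limit (limma, unadjusted p from 0.0661 to 0.0856 for FOXO3 and from 0.0960 to 0.176 for AKT1).

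Among genes that act with GHR inside the cell, 0 of 7 were at an unadjusted p under 0.05, and the median was 0.05. JAK2, the kinase bound to the receptor, stood at 0.16 ± 0.11 and its 1 further probe was likewise above 0. SOCS2, an inhibitor induced by growth hormone, had ratios of -0.27, -0.25, 0.27 and 0.91 and an estimate of 0.17 ± 0.22, so its arrays differed widely. SOCS2 stood at -0.13 without array 4 and at -0.16 with arrays 2 and 4 turned.

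Of the other binding and processing genes, 5 of 17 were tested and 0 were at an unadjusted p under 0.05, with a median of 0.05. IGFBP7, a relative of the binding proteins with low affinity for IGFs, had an estimate of -0.17 ± 0.12, and its 2 further probes were likewise below 0. IGFALS, the acid-labile subunit of the circulating IGF complex, stood at -0.08 ± 0.11, and at 0.079 with arrays 2 and 4 turned.

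Of the genes of mannose 6-phosphate sorting, the other task of IGF2R, 3 of 8 were tested and 1 was at an unadjusted p under 0.05. This was CTSD, the lysosomal protease cathepsin D, with ratios of -0.62, -0.97, -0.41 and -0.25. Its estimate was -0.57 ± 0.15 (limma, adjusted p = 0.605), and its 1 other probe had the same sign. The estimate was -0.39 without array 2 and 0.05 with arrays 2 and 4 turned. The list's median was -0.03.

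In the growth hormone axis, 7 of 11 genes were tested, with 1 lower at an unadjusted p under 0.05 and a median of -0.23. SSTR2, a receptor for the growth hormone inhibitor somatostatin, had ratios of -0.63, 0.22, -0.67 and -0.22. Its estimate was -0.32 ± 0.12 (limma, adjusted p = 0.605), and without array 1, 3 or 4 it left the unadjusted limit (limma, unadjusted p from 0.101 to 0.159). GH1, growth hormone itself, had ratios of -0.29, 0.74, -2.50 and -0.08 and an estimate of -0.53 (limma, adjusted p = 0.669), and was named after its values were seen.

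**Figure D5:**
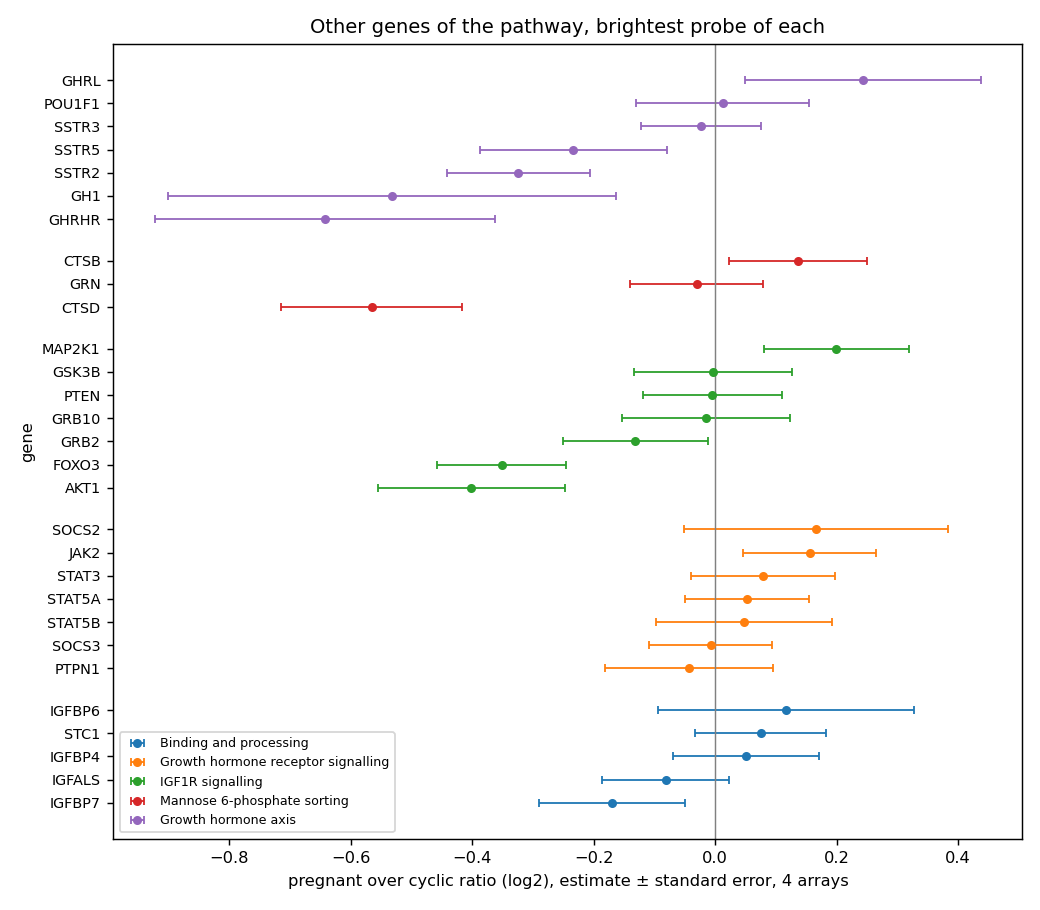
Estimate of pregnant over cyclic (log2, horizontal axis) with its standard error over 4 arrays for the 29 tested genes (vertical axis) of the 5 lists, coloured by list. AKT1, FOXO3, CTSD and SSTR2 lie below 0 at an unadjusted p under 0.05, and the 7 genes of growth hormone receptor signalling lie between -0.04 and 0.17.

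The genes whose level followed that of IGFBP5 most closely over the 8 animals, by Pearson's r after removing the mean of each dye, were DXO (r = 0.985), MAVS (r = 0.979) and CPNE1 (r = 0.979). For GHR they were TM2D2 (r = 0.954), PNPLA4 (r = 0.948) and CWF19L1 (r = 0.944). These are the highest of 2405 named genes compared over 8 animals in each case. The animals of an array share its hybridisation, so the values only describe the pattern.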

How the data were processed

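Each of 4 Agilent porcine arrays compared 1 pregnant with 1 cyclic gilt, and RNA integrity numbers lay from 7.5 to 10, per the labels' protocols. The deposited scanner files hold median spot and background intensities and processed intensities, per the file headers, which name Agilent's Feature Extraction, version 10.7.3.1. The authors' deposited value table holds log2 ratios, which equalled those of the processed signals, pregnant over cyclic by the label fields, for all 43553 probes spotted once (within 0.001).

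The work used limma 3.58.1 under R 4.3.3. Normexp corrected the background (offset 50) of the median intensities, with parameters estimated without spots the scanner software marked as outliers, and ratios were normalised by loess (span 0.3, control spots at weight 0). Kept were probes measured on 4 arrays whose signal was well above background in 4 or more of 8 channels. Each probe was fitted by lmFit and eBayes with a dye effect, with Benjamini-Hochberg adjustment over 25138 probes at 0.05. Levels per animal come from the same ratios after Aquantile scaling between arrays. The brightest kept probe stood for a gene. RefSeq names of Sscrofa11.1 gave 6700 probes 1 symbol each.

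All 8 genes were named. From each of the 5 lists, genes at an unadjusted p under 0.05 were named, otherwise the 2 of lowest p, and the 3 genes most alike in pattern to a member under that limit. Cell types were read from marker lists of the secretory, folliculostellate, stromal, endothelial, macrophage and posterior lobe cells. The genes and lists were chosen with earlier results of these data known. The fit was tested on simulated data. The number of arrays limits precision.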

Additional observations from a re-analysis of the deposited data

Results flagged for a closer look

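Of 51 groups of 4 values examined for the 17 tested probes (the ratios, the pregnant levels and the cyclic levels of each), 1 held a value far from the other 3 by Dixon's test, which chance flags in about 1 of 20 groups. This was the ratio of IGF2R on A_72_P704524, where array 2 stood at -0.37 and the other arrays between -0.13 and -0.08.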

How the results depend on the processing

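Member values are for the brightest probe. GHR, IGF1, IGF2 and IGF1R kept their direction in all 15 alternatives run, though IGF1R stood at only 0.0016 without array 1. Not all of these could change a direction. Leaving out the dye term, changing the filter, taking 1 probe per gene and fitting separate channels left each of these estimates as it was. For IGF1, with its 1 probe, so did the mean over a gene's probes. The dimmer IGF1R probe, A_72_P146851, fell to -0.07 without array 1. It fell to -0.03 with the scanner's processed signals and to -0.0052 with median centring. With arrays 2 and 4 turned and no dye term, IGF2R stood at 0.065, IGFBP2 at -0.19, IGFBP3 at 0.071 and IGFBP5 at 0.11. Background parameters from all spots gave IGFBP2 -0.14 and IGFBP3 0.038, and median centring gave IGFBP3 0.026. The scanner's processed signals gave IGF1 0.39, IGF1R 0.19, IGF2R -0.26 and IGFBP3 -0.34. With 1 array left out, IGFBP2 ranged from -0.20 to 0.23 and IGFBP3 from -0.21 to 0.10.

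Counts at an unadjusted p under 0.05 moved more. Of the member probes, 4 were under it, 1 with the arrays turned, 2 with 1 probe per gene, and 1 (without array 1 or 2) to 8 (without array 3) with 1 array left out. Of all probes there were 2012, 3127 without the filter, 3565 by separate channels and 918 (without array 1) to 3235 (without array 4) with 1 array left out. Of the pathway genes there were 4, 2 with the scanner's processed signals and 2 (without array 3) to 4 with 1 array left out. There were 5 with background parameters from all spots, with median centring, with the arrays turned and by separate channels. Past the adjusted threshold were 0 probes, 3 with a background offset of 10, 4 by separate channels and 0 to 7 (without array 1) with 1 array left out, and 0 member probes in every alternative. The cause of these moves was not tested. IGF2R and IGFBP3 gave no value with the stricter filter. Scaling between arrays leaves differences within an array as they are. Signal near background limits IGF1R, IGF2R and IGFBP3, and IGF1 was only slightly brighter than their brightest probes. Each estimate is already paired, from the ratio of the 2 animals of an array.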
